A study of Oryza sativa Japonica Group with 9 samples.

Results

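The NRT1/PTR family of rice was taken as every gene whose deposited description carries the proton-dependent oligopeptide transporter domain (POT, PF00854), which gave 98 of the 35902 genes listed for rice roots. Of these, 94 stood in the table for N deficiency, 95 in the table for P deficiency and 91 in both. All 98 had POT as their only listed domain. None carried a gene symbol in the deposited tables, so members are given by locus, apart from Os10g0554200, the nitrate transporter NRT1.1B. Roots of the Japonica cultivar Nipponbare had been grown with control nutrients, with N deficiency or with P deficiency, and each of the 3 groups had 3 libraries described as biological replicates. All 9 libraries came from total RNA of bulk roots, and no mutation or transgene is stated for any group. The same 3 control libraries served both deficiencies. The labels used here do not state plant age, length of treatment or nutrient concentrations.

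Proteins with the POT domain sit in membranes and use the proton gradient to move small solutes into or out of cells. In plants the family was first known for nitrate and for short peptides, and later for hormones and other metabolites, so the domain alone does not tell what a member carries. NRT1.1B is a plasma membrane nitrate transporter of rice that also acts in nitrate perception: when nitrate is present it promotes the removal of the repressor SPX4, which releases the transcription factors NLP3, for nitrate responses, and PHR2, for phosphate responses.

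Libraries held between 17931136 and 22752604 reads on genes. Values below are normalised reads, that is gene reads divided by a size factor for each library, and the N and P tables were scaled separately by the authors. Comparisons with control used the values of each table, and levels across all 9 libraries used 1 common scale. Log2 fold changes are on the log2(value + 1) scale, carry their SE and were tested with limma over all genes with Benjamini-Hochberg adjustment, and a gene passed at an adjusted p under 0.05. Each SD is over 3 libraries. The root silicon transporter genes Lsi1 and Lsi2 were high in every library, from 21150.5 normalised reads for Lsi1 upwards. P deficiency library 3 stood apart from the other 2 of its group. Over genes, its chi-square divided by the degrees of freedom was 42.4 and 49.81 against them, where every other pair within a group lay between 8.245 and 24.7. Its reads at Os02g0662000, an abundant gene with a hydrophobic seed protein domain, were 37649, against 94680.3 and 84605 in the other 2. The same gene had 61027, 58206.5 and 56075 in control and 44082, 74645 and 51028.5 under N deficiency. P deficiency libraries 1 and 2 were thus the highest of the 9 libraries, and library 3 the lowest. In bulk roots, fewer cells of a type and less RNA per cell cannot be told apart.

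The summed reads of the family overlapped between the 3 groups while the members within it changed places. Summed over the 91 members in both tables, normalised reads were 42853, 36968 and 44423 in the control libraries. They were 38504, 41083 and 46580.4 under N deficiency, and 40832, 39886 and 38416 under P deficiency. The sum of 42056 ± 4125 under N deficiency was not distinguishable from 41415 ± 3930.3 in control (exact permutation test, two-sided p = 0.9). The corresponding p was 0.5 for P deficiency, at 39711 ± 1217, against control. Of all gene reads, the family took 0.205% in control as well as with N deficiency, and 0.187% with P deficiency. This share was 0.194%, 0.202% and 0.220% in the N-deficient libraries, above the 0.186%, 0.183% and 0.191% of the P-deficient ones. The exact permutation test of N against P deficiency gave a two-sided p of 0.1 for the share, and that of P deficiency against control 0.2.

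NRT1.1B gave up most of its place. It supplied 12.6%, 10.3% and 12.4% of the family's reads in the control libraries. It supplied 1.29%, 1.20% and 1.06% under N deficiency and 3.65%, 5.63% and 2.65% under P deficiency. No library of one group overlapped another, and each pairwise comparison gave an exact permutation p of 0.1, two-sided, the smallest that 3 against 3 libraries allow. The member with most reads was Os01g0871500 in control, with 12.7% of the family's reads, and Os03g0687000 under both deficiencies, with 21.6% under N and 17.1% under P deficiency.

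**Figure D1:**
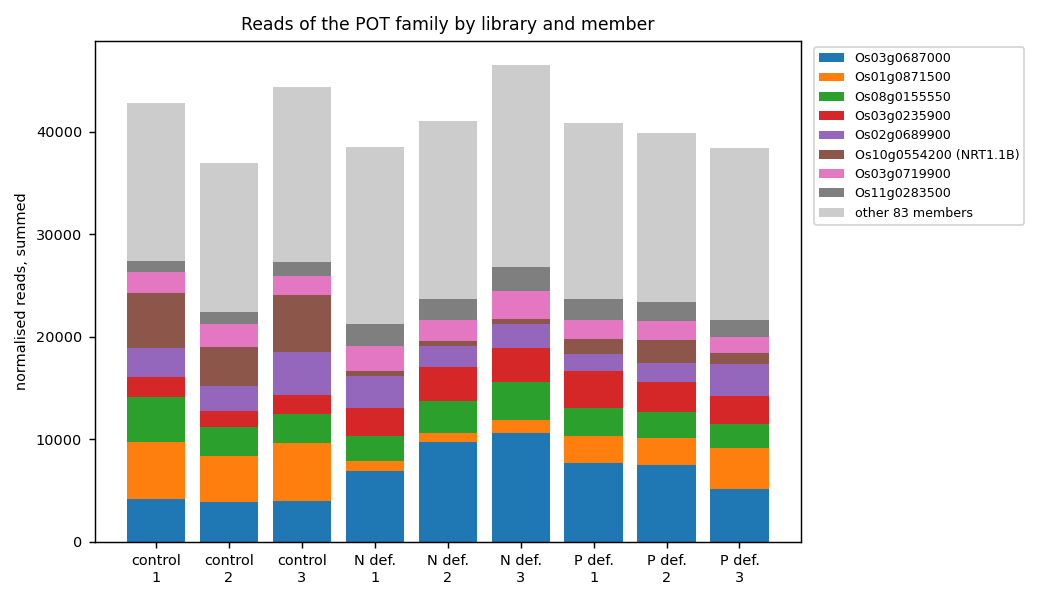
Stacked bars of the normalised reads of the 91 POT members measured in all 9 libraries, on the common scale, with the 8 members of most reads in colour and the other 83 in grey. The bars stay between 36968 and 46580.4 reads, while the brown part, NRT1.1B, shrinks from 10.3% or more of each control bar to 1.29% or less of each N deficiency bar.

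Per kb of gene length, which allows members to be compared, a few members stood far above the rest in control roots. Os01g0871500 led with 2934 ± 361 normalised reads per kb, followed by NRT1.1B with 2053 ± 401, Os08g0155550 with 1966 ± 549, Os03g0687000 with 1889 ± 77.3 and Os02g0689900 with 1418 ± 417. From NRT1.1B down to Os02g0689900, neighbours in this order overlapped within 1 SD of their means. Of the 91 members, 32 reached 100 normalised reads per kb in control, 27 lay between 10 and 100, and 32 lay under 10. The 5 members with most reads held 49.9% of the family's reads in control, 48.1% with N deficiency and 44.6% with P deficiency.

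The order changed with nutrition. Under N deficiency Os03g0687000 led at 4292 ± 909 reads per kb, with Os08g0155550 next at 1814 ± 371 and Os03g0235900 at 1545 ± 160.3, while NRT1.1B stood at 207 ± 0.663. Under P deficiency Os03g0687000 led at 3213 ± 666, followed by Os01g0871500 at 1717 ± 452 and Os03g0235900 at 1508 ± 199, with NRT1.1B at 663 ± 259. Os08g0155550 and Os08g0155400 overlap on opposite strands over 7352 bases of chromosome 8, and the sources used here do not say whether counting used strand. Without strand, reads of these 2 loci cannot be told apart.

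**Figure D2:**
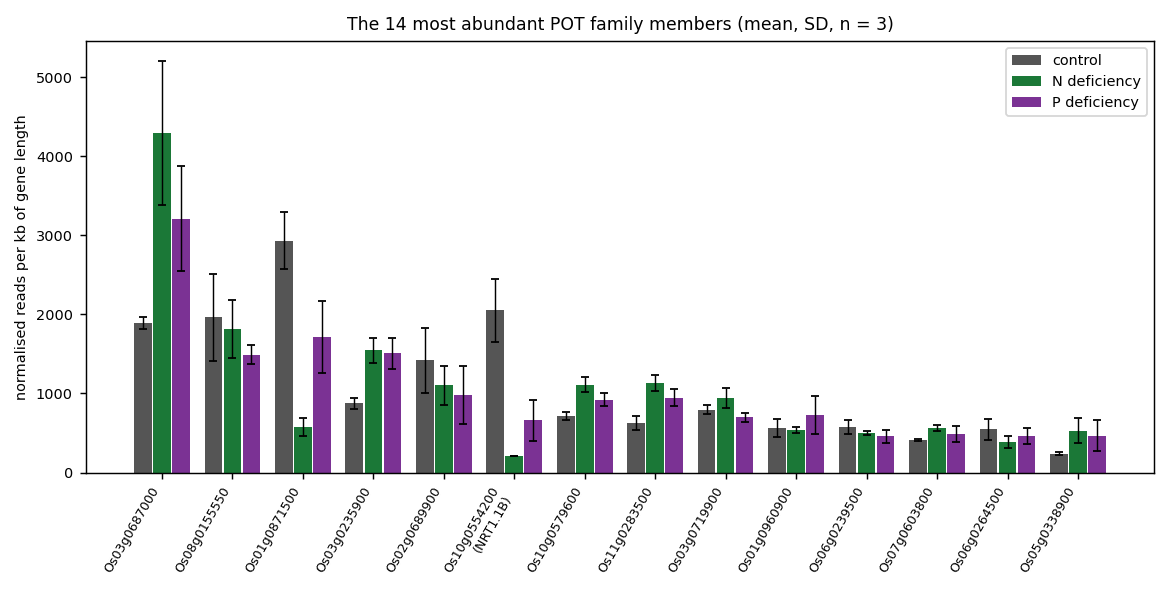
Bars give the mean normalised reads per kb of gene length of the 14 most abundant POT members in control, N deficiency and P deficiency (error bars, SD, n = 3). Os03g0687000 is the highest member under both deficiencies, at 4292 and 3213 reads per kb, and NRT1.1B drops from 2053 in control to 207 and 663.

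NRT1.1B showed the largest fall of the family under N deficiency. Its normalised reads were 5541, 3908 and 5668 in control and 511, 508 and 509 under N deficiency. The groups were far apart, and the 3 N-deficient libraries were closer to each other (SD 1.29) than counting alone would give on about 519 reads per library (22.8 reads). The control mean was 9.89 times the N-deficient mean, a log2 fold change of -3.28 ± 0.144 (limma adjusted p = 1.8e-05). For the same gene the authors' deposited table gives a log2 fold change of -3.31 under N deficiency and, in the authors' deposited table for P deficiency, -1.63.

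NRT1.1B also fell under P deficiency, but less evenly. Its reads were 5319, 3735 and 5370.2 in control and 1462, 2187 and 1002 under P deficiency. All P-deficient libraries lay below all controls, and the control mean was 3.101 times the P-deficient mean, a log2 fold change of -1.68 ± 0.281 (limma adjusted p = 0.015). The call was lost without P deficiency library 1 (limma adjusted p = 0.0658), control library 1 (0.0779) or control library 3 (0.0627), with log2 fold changes of -1.68, -1.60 and -1.59. Between the deficiencies, on the common scale, NRT1.1B stood at 497, 495 and 495 under N deficiency against 1492, 2247 and 1018 under P deficiency, a log2 difference of -1.60 ± 0.248 (limma adjusted p = 0.0056).

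Genes of photosynthesis also varied between libraries. The summed common-scale reads of 22 chlorophyll a-b binding genes, which mark green tissue, were 23135, 37219 and 63439 in control. They were 7748, 9854 and 6907 under N deficiency and 24832, 17812 and 26030.4 under P deficiency. In the same control libraries NRT1.1B stood at 5411, 3807 and 5519, and in the P-deficient libraries at 1492, 2247 and 1018. The sum did not follow NRT1.1B throughout: in P deficiency libraries 1 and 3 it lay above that of control library 1, while NRT1.1B lay below every control. In the N-deficient libraries both this sum and NRT1.1B lay below every library of the other groups. The part of green tissue in the falls under N deficiency was not tested.

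Under N deficiency 23 of the 88 tested members passed, 16 higher and 7 lower. That is 26.1% of members tested, against 12.8% of all genes tested. Higher calls were 18.2% of members against 6.9% of all genes, and lower calls 7.95% against 5.94%. The median log2 fold change was 0.32 over the members tested and -0.01 over all genes tested. Of the 94 members in this table, 6 were below the filter of a mean of 1 in 1 group, and 5 passed it through 1 group only. The edgeR quasi-likelihood test on recovered reads passed 22 members, against 12.7% of all genes, and the authors' deposited table lists 28 of 94 members at an adjusted p under 0.05, against 13.7% of all genes. Without N deficiency library 3 or without control library 2 the limma count was 15 members, 16.7% and 17% of those tested, against 8% and 8.03% of all genes.

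Among the falls, Os01g0871500 ranked after NRT1.1B. Its reads were 5717, 4630.4 and 5823 in control and 949, 908 and 1291 under N deficiency, with no overlap, a log2 fold change of -2.37 ± 0.155 (limma adjusted p = 9.7e-05). Under P deficiency it stood at 2595, 2499 and 3946 against controls of 5488, 4425 and 5517, below every control, at a log2 fold change of -0.80 ± 0.193 that did not pass (limma adjusted p = 0.056). It passed there without P deficiency library 3, at -1.01 (limma adjusted p = 0.00416), and with DESeq2 on recovered reads (adjusted p = 0.00591). The difference between the deficiencies was itself past the threshold, at -1.58 ± 0.195 (limma adjusted p = 0.0013). Together with NRT1.1B, these were the 2 members with the highest level per kb in control.

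A pair of neighbours on chromosome 5 fell under N deficiency with little difference under P deficiency. Os05g0411100 had 219.8, 193 and 328 reads in control and 64.7, 35.6 and 80.2 under N deficiency, a log2 fold change of -2.06 ± 0.316 (limma adjusted p = 0.0039). Os05g0410900 had 817, 679 and 993 in control and 208, 235 and 348 under N deficiency, a log2 fold change of -1.67 ± 0.209 (limma adjusted p = 0.0016). Neither locus overlapped between N-deficient and control libraries. Under P deficiency the 2 loci had log2 fold changes of 0.02 ± 0.223 and -0.11 ± 0.194 and did not pass (limma adjusted p = 0.97 and 0.78), with overlapping groups. The direct contrast of N against P deficiency was -2.08 ± 0.300 for Os05g0411100 (limma adjusted p = 0.0036) and -1.56 ± 0.223 for Os05g0410900 (limma adjusted p = 0.0034).

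The other 3 falls under N deficiency were smaller. Os06g0706400 had 742, 682 and 794 reads in control and 535, 397 and 545 under N deficiency, with no overlap, a log2 fold change of -0.60 ± 0.141 (limma adjusted p = 0.026). Without any 1 of the 3 control libraries it did not pass (limma adjusted p of 0.0592 to 0.0867). Os03g0235700 and Os01g0872400, which fell outside the rule for naming and are given after their values were seen, had log2 fold changes of -0.46 ± 0.104 and -0.49 ± 0.126 (limma adjusted p = 0.022 and 0.038). Os01g0872400 did not pass without any 1 of the 6 libraries (limma adjusted p of 0.0528 to 0.134), and Os03g0235700 did not without N deficiency library 2 or 3 or control library 1 or 2 (0.0505 to 0.0937).

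Os03g0687000 was the main gain of the family in reads. It had 4266, 3941 and 4101 reads in control and 7120.000, 9964 and 10937 under N deficiency, where every library exceeded every control. The mean rose 2.28 times, a log2 fold change of 1.16 ± 0.160 (limma adjusted p = 0.0024). Os03g0687100, another member, overlaps it on the opposite strand over 4503 bases but had a mean of 4.17 reads against 6629. Os03g0235900, also among the abundant members, had 1943, 1671 and 1886 reads in control and 2858, 3445 and 3446 under N deficiency, with no overlap, a log2 fold change of 0.82 ± 0.112 (limma adjusted p = 0.0023). Os11g0283500 had 1127, 1171 and 1445 reads in control and 2173, 2082 and 2485 under N deficiency, also apart, a log2 fold change of 0.85 ± 0.123 (limma adjusted p = 0.003).

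Among the members that passed, the largest rise on the log2(value + 1) scale, which understates changes of low genes, was that of a gene with few reads in control. Os12g0638200 had 34.5, 20.4 and 26.0 reads in control and 75.1, 239.9 and 153 under N deficiency, a log2 fold change of 2.37 ± 0.404 (limma adjusted p = 0.0063). The N-deficient libraries spread widely but all exceeded the controls. Os06g0706100 had 89.8, 71.8 and 72.5 reads in control and 234, 336 and 266 under N deficiency, again apart, a log2 fold change of 1.81 ± 0.178 (limma adjusted p = 5.4e-04). On chromosome 10 Os10g0470700 had 383, 507 and 505 reads in control and 1156, 1178 and 1399 under N deficiency, a log2 fold change of 1.42 ± 0.138 (limma adjusted p = 5.1e-04). Its neighbour Os10g0469900 had 230.2, 163 and 239 in control and 409.9, 673 and 601 under N deficiency, a log2 fold change of 1.40 ± 0.214 (limma adjusted p = 0.0039). For both neighbours every N-deficient library exceeded every control.

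Further rises under N deficiency were seen from low levels up to that of Os10g0579600, which is among the 10 members highest per kb. Os04g0597800 went from 311 ± 15.8 to 525 ± 69.5 reads (log2 fold change 0.75 ± 0.124, limma adjusted p = 0.0056), Os10g0579600 from 1374 ± 93.2 to 2148 ± 176 (0.64 ± 0.101, 0.0043) and Os07g0603800 from 1033 ± 35.7 to 1406 ± 107 (0.44 ± 0.0938, 0.017). Os01g0142800 went from 156 ± 23.1 to 249 ± 35.5 (log2 fold change 0.68 ± 0.166, limma adjusted p = 0.03). At lower levels, Os06g0705600 went from 19.5 ± 7.29 to 52.4 ± 5.79 (1.44 ± 0.310, limma adjusted p = 0.018), Os01g0902700 from 11.5 ± 3.27 to 31.0 ± 5.75 (1.38 ± 0.327, 0.027) and Os01g0556650 from 7.32 ± 3.66 to 22.1 ± 4.35 (1.56 ± 0.408, 0.04). Of the 88 members tested under N deficiency, 38 had groups that did not overlap, and the share over all genes is not given here. For each of the 7 loci of this paragraph the N-deficient libraries lay above the controls without overlap. These 7 are given because they passed a test on the same libraries, so the lack of overlap adds no support.

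Of these 7, 5 rested on single libraries for their call. Os01g0142800 did not pass without N deficiency library 2 or 3 or control library 2 or 3 (limma adjusted p up to 0.115). Os07g0603800 did not without N deficiency library 3 or control library 1 or 2 (up to 0.0644), and Os06g0705600 did not without any 1 of the N-deficient libraries (up to 0.0609). Os01g0902700 did not pass without N deficiency library 1 or 3 or control library 1 or 2 (limma adjusted p up to 0.101). Os01g0556650 passed without control library 3 and did not when any 1 of the other 5 was left out (limma adjusted p up to 0.13). Both remaining rises lie outside the rule for naming: Os05g0338900 went from 254 ± 20.6 to 568 ± 168 (log2 fold change 1.12 ± 0.194, limma adjusted p = 0.0067) and Os04g0491200 from 142 ± 29.5 to 218 ± 18.2 (0.63 ± 0.170, 0.044). Os04g0491200 did not pass with edgeR, nor without any 1 of the N-deficient libraries or control library 1 or 2 (adjusted p up to 0.148).

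**Figure D3:**
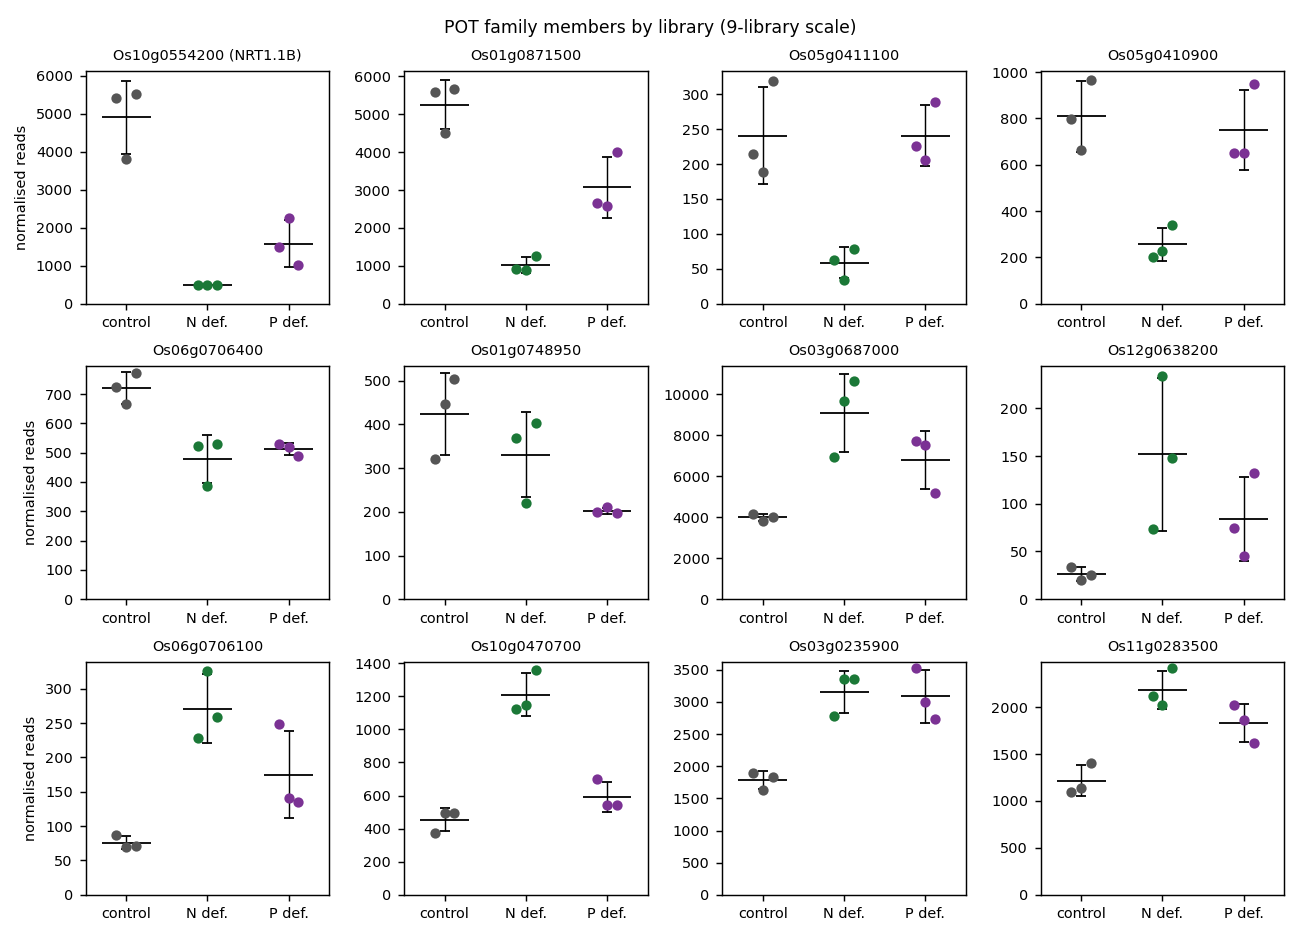
Each point is 1 library's normalised reads on the common scale for 12 POT members chosen among those with a passing comparison, with the mean (line) and SD (bar, n = 3). The N deficiency points of NRT1.1B (495 to 497) and of Os01g0871500 (883 to 1256) lie below every other library, and those of Os10g0470700 (1125 to 1360.3) lie above every other library.

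Under P deficiency 9 of the 89 tested members passed, 6 higher and 3 lower. That is 10.1% of members tested, against 6.28% of all genes tested. Higher calls were 6.74% of members against 3.58% of all genes, and lower calls 3.37% against 2.7%. The median log2 fold change was 0.30 over the members tested and 0.00 over all genes tested. With the filter raised to a mean of at least 10, it was 0.17 over the 66 members tested and 0.01 over all genes tested. Of the 95 members in this table, 6 were below the filter and 7 passed it through 1 group only. Of these 7, Os04g0660900 is among the 6 higher calls, and leaving it aside gives 5 higher and 3 lower. The edgeR quasi-likelihood test passed 8 members, against 6.07% of all genes, and the authors' deposited table lists 17 of 95 members at an adjusted p under 0.05, against 9.36% of all genes.

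The P deficiency count depended on single libraries. It was 1 member without P deficiency library 1, 4 without library 2 and 14 without library 3, the library that stood apart. It was 1 without control library 1, 1 without control library 2 and 4 without control library 3. In 3 of these omissions the share of members called lay below that of all genes: 1.16% against 2.56% without P deficiency library 1, 1.12% against 2.14% without control library 1 and 1.12% against 2.31% without control library 2. In the other 3 it lay above, at 4.49% against 2.85% without P deficiency library 2, 15.6% against 10.4% without library 3 and 4.49% against 3.66% without control library 3. A higher share of calls among members than among all genes under P deficiency thus did not hold in every omission. None of the 8 named members that passed did so under every such omission.

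The 5 members that rose under both deficiencies were Os03g0687000, Os03g0235900, Os11g0283500, Os06g0706100 and Os01g0556650, and the 2 that fell under both were NRT1.1B and Os06g0706400. No member passed in opposite directions. The share of all genes that passed in both comparisons is not given here, so these counts do not set the family apart. Both comparisons use the same 3 controls, so a control library that is high or low shifts both, and the values are set side by side.

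Os03g0687000 had 4095, 3766 and 3886 reads in control and 7553, 7323 and 5095 under P deficiency, a log2 fold change of 0.74 ± 0.163 (limma adjusted p = 0.041) beside 1.16 under N deficiency. Its P-deficient libraries lay above the controls, the lowest being library 3. Os03g0235900 had 1865, 1597 and 1787 in control and 3463, 2915 and 2689 under P deficiency, also apart, a log2 fold change of 0.78 ± 0.123 (limma adjusted p = 0.012) beside 0.82. Os11g0283500 had 1082, 1119 and 1369 in control and 1981, 1811 and 1590.3 under P deficiency, a log2 fold change of 0.59 ± 0.129 (limma adjusted p = 0.04) beside 0.85.

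Os06g0706100 had 86.2, 68.6 and 68.7 reads in control and 244, 137 and 134 under P deficiency, a log2 fold change of 1.14 ± 0.258 (limma adjusted p = 0.045) beside 1.81 under N deficiency. Os01g0556650, a gene of few reads, had 6.63, 3.71 and 10.6 in control and 33.6, 19.9 and 31.8 under P deficiency, a log2 fold change of 1.94 ± 0.424 (limma adjusted p = 0.04) beside 1.56. It overlaps another member, Os01g0556700, on the opposite strand over 628 bases. Os06g0706400 had 713, 652 and 752 in control and 521, 504 and 481 under P deficiency, a log2 fold change of -0.49 ± 0.0973 (limma adjusted p = 0.029) beside -0.60. In all 3 the groups did not overlap, as in 31 of the 89 members tested under P deficiency. The share over all genes is not given here. These loci were listed for passing on the same libraries, so the lack of overlap adds no support.

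Each of these calls under P deficiency was lost when a library was left out. Os03g0687000, Os06g0706100 and Os06g0706400 did not pass without P deficiency library 1 or 2 or any 1 of the controls, with limma adjusted p of up to 0.141, 0.147 and 0.12. Os11g0283500 did not pass without P deficiency library 1 or 2 or control library 1 or 2 (limma adjusted p up to 0.154). Os03g0235900 did not pass without control library 1 or 2 (limma adjusted p up to 0.0627), and Os01g0556650 did not without any 1 of the P-deficient libraries or control library 1 or 2 (up to 0.14).

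Passing under P deficiency and not under N deficiency were 2 members. Os01g0748950 had 315, 438 and 489.9 reads in control and 196, 205 and 194 under P deficiency, with no overlap, a log2 fold change of -1.04 ± 0.171 (limma adjusted p = 0.015). Under N deficiency it had 379, 226 and 416 against 328, 459 and 517 in control, overlapping, a log2 fold change of -0.37 ± 0.250 (limma adjusted p = 0.41). The direct contrast of N against P deficiency, 0.66 ± 0.232, did not pass (limma adjusted p = 0.18), so the 2 responses were not shown to differ. The P call was lost without P deficiency library 1 or 2 or control library 2 (limma adjusted p of 0.0533 to 0.0746).

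Os04g0660900, named after its values were seen, had 0 reads in all 3 controls and 17 reads over the 3 P-deficient libraries, or 5.80, 2.98 and 8.41 normalised reads. Set against 3 reads summed over the controls, the limit that a count of 0 allows, the ratio was 6.01. That ratio takes the 17 reads without their own counting error. Os04g0660900 is 1 of the 7 members passing the filter through 1 group only, so its limma call, counted above, and its ratio support nothing. It did not pass with edgeR TMM (adjusted p = 0.0628), nor without P deficiency library 1 or any 1 of the controls (limma adjusted p of 0.0576 to 0.0869).

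**Figure D4:**
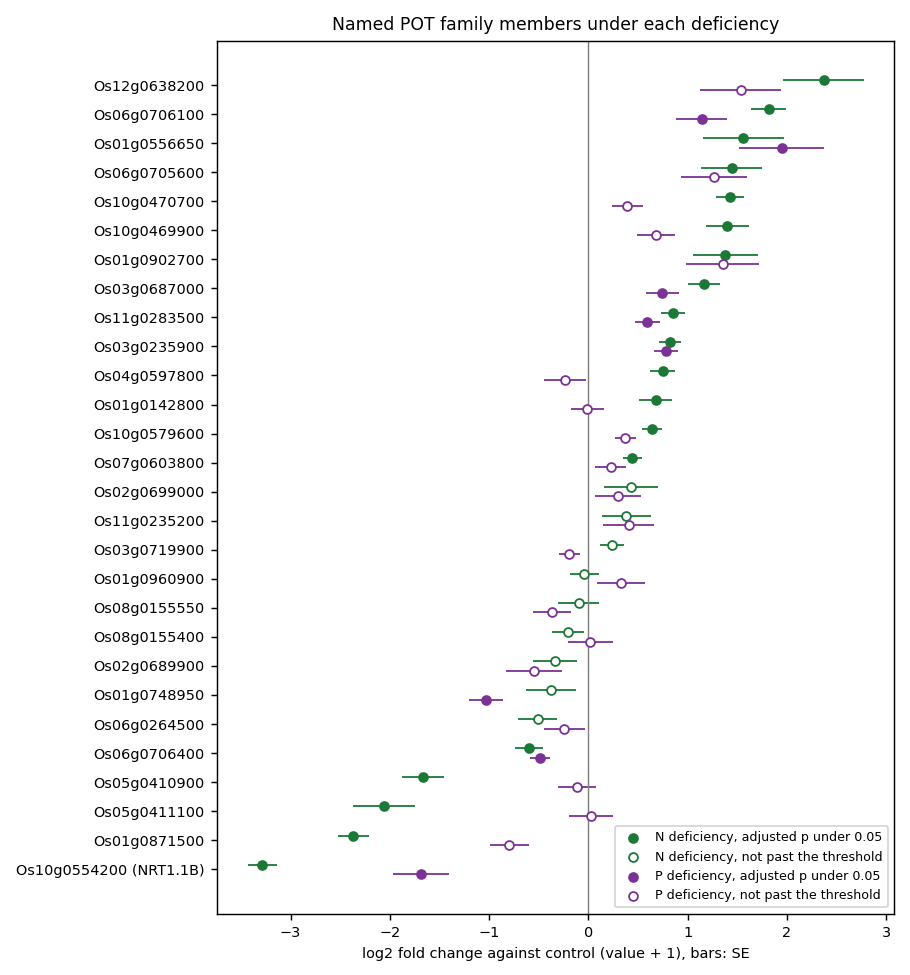
Log2 fold changes against control (points, with SE bars) of the 28 named POT members tested in both deficiencies, green for N and purple for P deficiency, with filled points past an adjusted p of 0.05. NRT1.1B lies lowest for both, at -3.28 and -1.68, and the N deficiency points of Os05g0411100 and Os05g0410900 lie at -2.06 and -1.67 with their P deficiency points near 0.

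Set directly against each other, the 2 deficiencies differed in 7 of the 88 members tested, 3 higher and 4 lower under N deficiency. That is 7.95%, against 3.88% of all genes tested. Higher calls were 3.41% of members against 1.43% of all genes, and lower calls 4.55% against 2.45%. The edgeR test also passed 7, against 3.98% of all genes. The 4 lower members were NRT1.1B, Os01g0871500, Os05g0411100 and Os05g0410900, given above.

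The 3 members higher under N than under P deficiency were these. Os10g0470700 had 1125, 1146 and 1360.3 common-scale reads under N deficiency and 699, 541 and 540.4 under P deficiency, a log2 difference of 1.03 ± 0.148 (limma adjusted p = 0.0035). Os04g0597800 had 518, 440.2 and 575 against 303, 310.4 and 180.4, a log2 difference of 0.98 ± 0.198 (limma adjusted p = 0.023), and did not pass without N deficiency library 1 or 3 (limma adjusted p = 0.0855 and 0.107). Os01g0142800 had 207, 246 and 275 against 151, 134 and 164, a log2 difference of 0.69 ± 0.162 (limma adjusted p = 0.047). In all 3 the groups did not overlap, which adds no support, since these loci were listed for passing on the same libraries. The call of Os01g0142800 was lost in 7 of the 9 omissions of 1 library, with limma adjusted p up to 0.187, and the count of higher members was 1 without N deficiency library 3.

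In all, 73 members passed in neither comparison with control. Of these, 61 were tested in both, 7 in neither and the rest in a single comparison. Abundant members were among the 61. Os08g0155550 had 3423 ± 951 reads in control and 3166 ± 649.9 under N deficiency (limma adjusted p = 0.82), and 2478 ± 200.4 under P deficiency against 3270.3 ± 927 (0.32). Os02g0689900 had 3253 ± 959.7 in control and 2543 ± 567 under N deficiency (limma adjusted p = 0.4), and 2156 ± 808 against 3101 ± 895 under P deficiency (0.32). Os03g0719900 had 2092 ± 162 and 2481 ± 344 reads (limma adjusted p = 0.28), and 1997 ± 161 against 1747 ± 127 under P deficiency (0.34). For Os01g0960900 the N deficiency comparison gave a log2 fold change of -0.04 ± 0.145 (limma adjusted p = 0.89) and P deficiency 0.32 ± 0.242 (0.49). These comparisons missed the threshold, which does not show that the levels were equal.

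The remaining loci of the naming rule did not pass in the limma test either. For Os06g0264500 the log2 fold change was -0.51 ± 0.194 under N deficiency (limma adjusted p = 0.14) and -0.25 ± 0.206 under P deficiency (0.55), for Os11g0235200 0.38 ± 0.250 (0.4) and 0.40 ± 0.253 (0.41), and for Os02g0699000 0.42 ± 0.271 (0.39) and 0.30 ± 0.233 (0.52). For Os08g0155400 it was -0.20 ± 0.159 under N deficiency (limma adjusted p = 0.49) and 0.02 ± 0.225 under P deficiency (0.97). Os03g0103000 was near the limit of detection, with a mean of 0.647 ± 1.12 normalised reads in control and 2.61 ± 0.499 under N deficiency. Under P deficiency it was below the filter and was not tested. Os01g0556700 was at 0 in all controls of the P table and was not tested under N deficiency.

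The members are spread over 11 chromosomes, and 69 of the 98 lie in 22 groups of neighbours no more than 50000 bases apart, in the coordinates of the deposited tables. Members that overlap each other on opposite strands, 32 in 16 pairs, count as neighbours here. Some of the groups hold only such a pair, as that of Os08g0155400 and Os08g0155550 does. Neighbours could move in opposite directions. On chromosome 6, 29814603 to 29841264, a group of 5 holds Os06g0705600 and Os06g0706100, which rose under N deficiency, and Os06g0706400, which fell. On chromosome 3, 7139074 to 7168860, Os03g0235900 rose and Os03g0235700 fell, and Os03g0235300 did not pass (log2 fold change 0.20 ± 0.106, limma adjusted p = 0.30).

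Other groups moved one way or not at all. On chromosome 5, 20045195 to 20101168, 2 of 6 members fell under N deficiency and 0 passed under P deficiency. On chromosome 10, 17374458 to 17420814, both members rose under N deficiency, and in the group of 6 at 762068 to 838994 on the same chromosome 0 passed in either comparison. The group with most members, 13 on chromosome 1 from 37790484 to 37840372, held 2 falls under N deficiency, Os01g0871500 and Os01g0872400, and 0 calls under P deficiency. Of the 98 members, 37 overlap another gene on the opposite strand, 5 of them with a call under N deficiency and 3 under P deficiency. Of all genes tested, 12.8% passed under N deficiency and 6.28% under P deficiency, so these counts do not set the 37 apart. Some of the 37 were not tested. Without strand, the reads that fall where 2 genes overlap cannot be assigned to either. The overlap covers from 3.61% of the gene span, for Os10g0579600, to 86.2%, for Os03g0687000, among the 5 members with a call under N deficiency.

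Around the family, the high-affinity nitrate uptake genes went the opposite way from NRT1.1B under N deficiency. Of 10 listed genes of nitrate uptake and assimilation, 6 rose, 2 fell and 2 did not pass. The 4 NRT2 transporters all rose: NRT2.4 from 21.8 ± 7.69 to 8032 ± 900.3 reads (log2 fold change 8.50 ± 0.213, limma adjusted p = 1.1e-06) and NRT2.1 from 12.6 ± 2.07 to 1240.4 ± 191 (6.51 ± 0.180, 1.7e-06). NRT2.3 had a log2 fold change of 4.91 ± 0.207 and NRT2.2 one of 3.49 ± 0.154 (limma adjusted p = 1.5e-05 and 1.8e-05). The transcripts of the NAR2 partner proteins, which several NRT2 transporters need for activity, rose too, NAR2.1 by 3.63 ± 0.172 and NAR2.2 by 4.13 ± 0.233 on the log2 scale (limma adjusted p = 2.2e-05 and 5.1e-05).

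The nitrate reductase gene NIA1 fell under both deficiencies, from 4575 ± 1936 to 2210.4 ± 308 reads under N deficiency (log2 fold change -0.98 ± 0.252, limma adjusted p = 0.037) and with -1.50 ± 0.254 under P deficiency (0.016). The N call was lost without any 1 of the N-deficient libraries or control library 2 (limma adjusted p up to 0.114), the P call without P deficiency library 1 or 2 (up to 0.0594). Os02g0770800, which carries nitrate reductase domains, had log2 fold changes of -1.72 ± 0.309 and -1.55 ± 0.306 (limma adjusted p = 0.008 and 0.028), the second lost without P deficiency library 1 or 2 or control library 1 (up to 0.104). Os08g0468700 and Os01g0357100, with reductase domains, did not pass in either.

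Under P deficiency 1 of the 10 rose, 4 fell and 5 did not pass. NRT2.4 rose (log2 fold change 1.79 ± 0.364, limma adjusted p = 0.032), and NRT2.2 (-1.32 ± 0.237, 0.02) and NAR2.1 (-1.30 ± 0.227, 0.018) fell beside the 2 reductase loci. These 3 calls were lost in 4 omissions of 1 library each, with limma adjusted p up to 0.121, 0.0933 and 0.0814. The libraries were P deficiency 1 and 2 and control 1 and 2 for NRT2.4, P deficiency 2 and any 1 of the controls for NRT2.2, and P deficiency 1 and any 1 of the controls for NAR2.1. In the direct contrast the 6 NRT2 and NAR2 genes were all higher under N than under P deficiency.

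The proteins through which NRT1.1B is known to act were not measured, and only their transcripts are given. The removal of SPX4 described above concerns the protein, so transcript levels cannot show whether that step changed. SPX4, NLP3 and PHR2 passed in 0 of the 3 comparisons. SPX4 had 462 ± 46.0 reads in control and 459 ± 36.1 under N deficiency (limma adjusted p = 0.98), and 440.5 ± 42.1 against 435 ± 45.1 under P deficiency (0.95). NLP3 had log2 fold changes of -0.26 ± 0.0944 and -0.08 ± 0.0976 (limma adjusted p = 0.13 and 0.67), and PHR2 -0.11 ± 0.0999 and -0.22 ± 0.0860 (0.55 and 0.19).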

How the data were processed

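Root RNA was made into TruSeq libraries, per the labels' protocols, and HISAT2 2.0.5 and a human assembly name stand in the submitters' processing notes. The sources used here do not give the rice genome build, annotation, read counter or strand setting. The library columns deposited by the authors hold a normalised signal: gene reads over 1 size factor per library, set separately in each of 2 tables. Whole reads came back for 100% of values (tolerance 0.001), and 0 control reads differed between tables. The authors' adjusted p-value and log2 fold change columns were, per the file headers, their own results.

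Genes with a mean of at least 1 in 1 group were tested on log2(value + 1) with limma 3.58.1 (R 4.3.3, intensity trend, Benjamini-Hochberg over all genes), on 6 libraries for each deficiency and on all 9, rescaled by median of ratios, for N against P deficiency. Alternatives used edgeR 4.0.16, DESeq2 1.42.0, other filters and pseudocounts, a replicate block, other fits and each library left out. The steps were tested on simulated data. Single values used exact permutation tests.

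Named members were up to 12 passing members per comparison by size of change with at least 10 reads, the 10 highest per kb, those passing under both deficiencies, and loci known for the family. The members and lists were chosen with earlier results of these data known. NRT2.1, NRT2.2, NAR2.2, NIA1, SPX4, NLP3 and PHR2 were named from RefSeq (assembly ASM3414082v1) by position near the locus, and NRT2.3, NRT2.4 and NAR2.1 from the deposited tables.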

Additional observations from a re-analysis of the deposited data

How the results depend on the processing

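No called member changed direction under the alternatives run, and counts of passing genes were less stable. Leaving out each library in turn gave 2622 to 3710 genes under N deficiency (4194 with all libraries), with 15 to 22 family members, 10 to 16 higher and 4 to 6 lower. For P deficiency it gave 696 to 3384 genes (2047 with all), with 1 to 14 members, 0 to 10 higher and 0 to 4 lower. For N against P deficiency it gave 693 to 1579 genes (1247 with all), with 5 to 8 members, 1 to 4 higher and 4 to 5 lower. DESeq2 passed 3256 genes and 17 members under P deficiency, 11 higher and 6 lower, and 2267 genes and 12 members, 7 higher, for N against P deficiency. A single fit over 9 libraries passed 14 members under P deficiency, 5 lower, and a fit of N against P deficiency on its own 6 libraries passed 1 member as higher. The cause of these differences was not tested.

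Of the 19 named members that passed under N deficiency, 13 passed in every omission of 1 library and 17 under all other alternatives. For P deficiency these were 0 and 7 of 8, and for N against P deficiency 5 and 5 of 7. Under P deficiency 7 further named members passed in at least 1 other alternative. It was not settled whether the replicate numbers pair the samples. Correlations of same-numbered libraries' deviations across genes ran from -0.0886 to 0.263 between control and N deficiency. They ran from 0.0360 to 0.218 between control and P deficiency and from -0.101 to 0.368 between the deficiencies. The lowest value in each pair of groups was that of number 1, and numbers 2 and 3 gave positive values throughout. In each pair of groups, 2 of 3 replicates correlated best with their own number. With the replicate block, 4661 genes and 25 members passed under N deficiency, 2106 and 11 (5 lower) under P deficiency, where Os11g0283500 did not pass (adjusted p = 0.0737), and 1528 and 7 for N against P deficiency. The block also passed Os06g0264500 under N deficiency (adjusted p = 0.0194) and, under P deficiency, Os02g0689900, Os01g0871500 and Os10g0469900 (adjusted p = 0.0444, 0.0311 and 0.03), which did not pass without it.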
